A study of Mus musculus with 2 samples.

Results

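The glucocorticoid response genes are 10 mouse genes that report on the action of dexamethasone, a synthetic glucocorticoid. They were taken by gene symbol as the set Nr3c1, Fkbp5, Tsc22d3, Zbtb16, Sgk1, Klf9, Errfi1, Hsd11b1, Glul and Lcn2. Each symbol occurred once among the 44291 genes of the table, so 10 of 44291 genes are described.

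Glucocorticoids cross the cell membrane and bind the glucocorticoid receptor, a transcription factor that is held in the cytoplasm by a chaperone complex built around HSP90. The bound receptor moves to the nucleus, where it raises the transcription of genes near glucocorticoid response elements and lowers that of many inflammatory genes. Dexamethasone is a standard part of the cocktail that drives mesenchymal precursors into adipocytes, together with IBMX, which keeps cyclic AMP high, and insulin.

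The cells were primary wild-type fibro-adipogenic progenitors (FAPs), mesenchymal cells of skeletal muscle that can become fibroblasts or adipocytes. By the study's methods they were sorted from the hind limb muscles of young adult C57BL/6 mice. They received either platelet-rich plasma (PRP) or vehicle as the control, and RNA-seq was run on 1 library of each. Per the labels the treatment was PRP, while the study's text speaks of exosomes purified from the PRP of young human donors. Both libraries carried the label of adipogenic differentiation, for which the induction medium held dexamethasone at 0.25 µM, IBMX at 0.5 mM, insulin at 10 µg/ml and FBS at 20%. Induction with dexamethasone was therefore shared by both groups, and no library without it was analysed here. The study's methods also describe a later maintenance medium with FBS and insulin, for which dexamethasone and IBMX are not listed. Whether RNA was taken before or after a change to that medium is not stated there. The comparison asks whether genes that answer to dexamethasone stood at another level in FAPs given PRP, and it cannot measure induction by dexamethasone itself. How long the cells were in the induction medium before RNA was taken is not given in the labels, nor how many mice or cultures went into a library.

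Reads assigned to genes, as recovered from the deposited FPKM and annotated exon lengths, numbered 40120843 under PRP and 34139741 under control. The read numbers of single genes below were recovered in the same way. Levels are given in FPKM, which corrects read numbers for exon length and for library size. The annotated exon length pools all transcripts of a gene, so levels of different genes can be compared only roughly. Log2 fold changes are PRP minus control on the log2(FPKM + 1) scale, which understates the change of low genes. They were read for the 13401 genes whose mean of both libraries reached 1 FPKM, which is called the filter here. With a single library on each side, no difference has a replicate check and p-values cannot be given. The 95% intervals cover counting error only. As these are bulk libraries, fewer cells of a type and less RNA per cell cannot be told apart.

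The cells carried markers of their label. Pdgfra, the receptor by which FAPs are sorted, stood at 19.8 FPKM under PRP and 28.0 in the control. Ly6a, which encodes Sca-1, stood at 59.9 and 66.4. Of the 8 FAP markers, 6 passed the filter and all 6 were lower under PRP, where 49.1% of all genes were lower. The summed level over the 8 genes was 238 against 382 FPKM. The largest differences among them were in the collagen genes Col1a1, at 119 and 219 FPKM, and Col3a1, at 26.9 and 53.7. Lum, also a fibroblast marker, was near 0 at 0.0815 and 0.0718 FPKM. Of the 8 adipocyte markers, 6 passed the filter. Under PRP 5 were higher and 1 lower, where 50.9% and 49.1% of all genes were, with a summed level of 73.2 against 62.2 FPKM. The counting interval of the ratio lay above 1 for Pparg and Fabp4 and included 1 for the other 4. Over all genes with whole reads, 26.1% lay above 1. Of the 5 blood cell markers 0 passed the filter, with a summed level of 0.672 and 0.605 FPKM, and Ptprc, which encodes CD45, was near 0 at 0.0109 and 0.0192. Of the 4 endothelial markers 1 passed. Pecam1, which encodes CD31, was near 0 at 0.188 and 0.0470 FPKM, as were Cdh5 and Tie1. Kdr, which passed, was at 4.23 FPKM under PRP and 1.499 in the control. The myogenic regulators Pax7 and Myog were listed at 0 in both libraries, and Myod1 at 0 and 0.0315 FPKM. The part of these marker shifts in the results below was not tested.

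Among the glucocorticoid response genes, Errfi1 had the highest level in the PRP library, at 25.4 FPKM, followed by Hsd11b1 at 18.04 and Sgk1 at 11.5. Nr3c1, Fkbp5, Klf9 and Glul followed between 7.40 and 7.85 FPKM, and the counting interval of each overlapped that of its neighbour in this order. Tsc22d3 at 2.14, Zbtb16 at 1.49 and Lcn2 at 0.808 FPKM closed the order, each apart from the next. In the control library the order differed at the top. Hsd11b1 led at 30.4 FPKM, followed by Errfi1 at 17.9 and Fkbp5 at 12.4. Nr3c1 and Sgk1 were neighbours whose intervals overlapped, as were Sgk1 and Klf9, and Tsc22d3 and Zbtb16. Hsd11b1 and Errfi1 thus exchanged the first place between the libraries. Sgk1 stood above Nr3c1 under PRP, and Fkbp5 stood above it in the control, beyond counting error in each case.

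**Figure D1:**
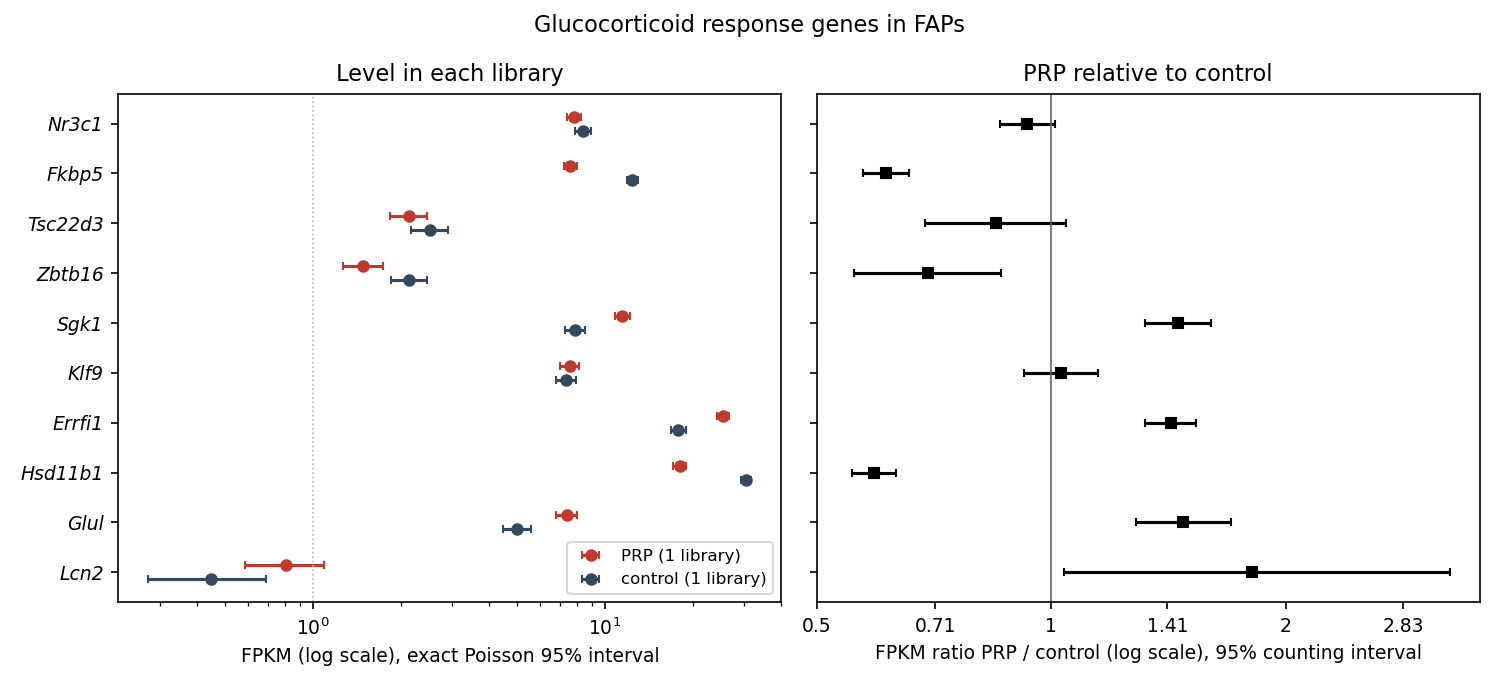
Levels of the 10 glucocorticoid response genes in FPKM on a log scale (left, dots with exact Poisson 95% intervals, dotted line at 1 FPKM) and the FPKM ratio of PRP to control on a log scale (right, squares with 95% Clopper-Pearson intervals), 1 library per group. Hsd11b1 and Fkbp5 lie furthest to the left of a ratio of 1, at 0.593 and 0.614, while Sgk1, Errfi1 and Glul lie to the right, between 1.42 and 1.48.

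Nr3c1 encodes the glucocorticoid receptor and was read at 7.85 FPKM under PRP (2419 reads) and at 8.42 FPKM in the control (2208 reads). The ratio of PRP to control was 0.932, with an interval of 0.858 to 1.01 that includes no change. The interval lay below 1, at 0.839 to 0.990, after rescaling without mitochondrial and the most abundant genes, and at 0.880 to 0.988 with every read counted as independent. Its log2 fold change of -0.09 lay at percentile 36.8 of all genes that passed the filter.

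The lowest ratios of PRP to control in the set were those of Hsd11b1 and Fkbp5. Hsd11b1 (chr1:193221634-193264075, minus strand, GRCm38) encodes the enzyme of the endoplasmic reticulum that turns inert 11-keto glucocorticoids into active ones, and it is itself raised by glucocorticoids in many mesenchymal cells. It stood at 18.04 FPKM under PRP (3077 reads) and at 30.4 FPKM in the control (4417 reads). The control was 1.69-fold higher, and the ratio of PRP to control was 0.593 (interval 0.555 to 0.633). Its log2 fold change of -0.72 was the lowest of the set, at percentile 2.65 of all genes that passed the filter.

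Fkbp5 (chr17:28399094-28517527, minus strand) encodes FKBP51, an HSP90 co-chaperone that lowers the receptor's affinity for hormone and is among the genes most readily induced by it. It was read at 7.62 FPKM under PRP (2896 reads) and 12.4 FPKM in the control (4011 reads). The ratio of PRP to control was 0.614 (interval 0.574 to 0.658), and the log2 fold change of -0.64 lay at percentile 3.67. Hsd11b1 and Fkbp5 were thus lower under PRP, by 1.69-fold and 1.63-fold. Whether these differences are linked was not tested.

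Of Zbtb16, Tsc22d3 and Klf9, which encode transcription regulators, Zbtb16 was lower in the PRP library, while the intervals of the other two included no change. Zbtb16 (chr9:48654297-48836222, minus strand) encodes PLZF, a zinc-finger repressor. It stood at 1.49 FPKM under PRP (315 reads) and 2.14 in the control (386 reads), a ratio of 0.694 (interval 0.559 to 0.862) and a log2 fold change of -0.34. Tsc22d3 (chrX:140539528-140600659, minus strand) encodes GILZ, which carries much of the anti-inflammatory action of glucocorticoids. It was read at 2.14 FPKM under PRP (372 reads) and 2.52 in the control (373 reads). The ratio of 0.849 had an interval of 0.689 to 1.05 that includes no change, and of 0.733 to 0.982 with every read counted as independent. Klf9 (chr19:23141226-23168134, plus strand) encodes a Krüppel-like factor that takes part in adipocyte differentiation. It was at 7.57 FPKM under PRP (1463 reads) and 7.36 in the control (1210 reads). The ratio of 1.03 (interval 0.923 to 1.15) and the log2 fold change of 0.04, at percentile 54.0, place it in the middle of all genes.

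Sgk1 and Errfi1 were higher in the PRP library by nearly the same ratio. Sgk1 (chr10:21882184-21999903, plus strand) encodes a kinase that acts downstream of insulin and PI3K and is induced within the first hours of glucocorticoid exposure. It stood at 11.5 FPKM under PRP (2260 reads) and 7.90 in the control (1322 reads), a ratio of 1.45 (interval 1.32 to 1.60) and a log2 fold change of 0.49. Errfi1 (chr4:150853919-150868892, plus strand) encodes MIG6, a feedback inhibitor of the EGF receptor family. It was read at 25.4 FPKM under PRP (3650 reads) and 17.9 in the control (2183 reads), a ratio of 1.42 (interval 1.32 to 1.53). The log2 fold change of 0.49 equalled that of Sgk1 when rounded, and both genes lay close to percentile 91, at 91.4 and 91.3. Both are also known to respond to growth factors and serum, so they are not readouts of the receptor alone.

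Glul (chr1:153899944-153909723, plus strand) encodes glutamine synthetase, a metabolic target of glucocorticoids in muscle and fat. It was at 7.40 FPKM under PRP and 5.01 in the control, a ratio of 1.48 and a log2 fold change of 0.48, at percentile 91.2. The exon length in GENCODE M21 gave no whole reads for this gene, and the smallest read numbers that the values allow are 1123 and 647, which give an interval of 1.29 to 1.70. Glul also shares 3.49% of its exon length with the genes Mir8114 and Teddm2. Lcn2 (chr2:32384633-32388252, minus strand) encodes lipocalin 2, a secreted iron-siderophore carrier that answers to glucocorticoids and to inflammatory signals. It was read at 0.808 FPKM under PRP (85 reads) and 0.447 in the control (40 reads). The ratio was 1.81, but the interval ran from 1.04 to 3.25, and Lcn2 was the only member of the set below the filter. Sgk1, Errfi1 and Glul were thus higher in the PRP library by similar ratios, while Lcn2 was too low for its ratio to be placed closely.

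Over the set the libraries differed in both directions. Of the 10 genes, 9 passed the filter, of which 4 were higher and 5 lower under PRP. Their median log2 fold change was -0.09, beside 0.01 over all 13401 genes. Of the 9, 0 were at least 2-fold higher and 0 at least 2-fold lower, where 2% and 0.828% of all genes were. At 1.5-fold, 0 were higher, where 6.15% of all genes were, and 2 were lower (Hsd11b1 and Fkbp5), where 4.57% were. The counting interval lay above a ratio of 1 for Sgk1, Errfi1 and Glul and below 1 for Hsd11b1, Fkbp5 and Zbtb16, or 3 of 9 each way. Over the 12369 genes with whole reads, 26.1% lay above and 26.1% below, so an interval that leaves out no change was common at this depth. All 9 genes lay within the range that held the central 95% of genes, from -0.74 to 0.89.

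**Figure D2:**
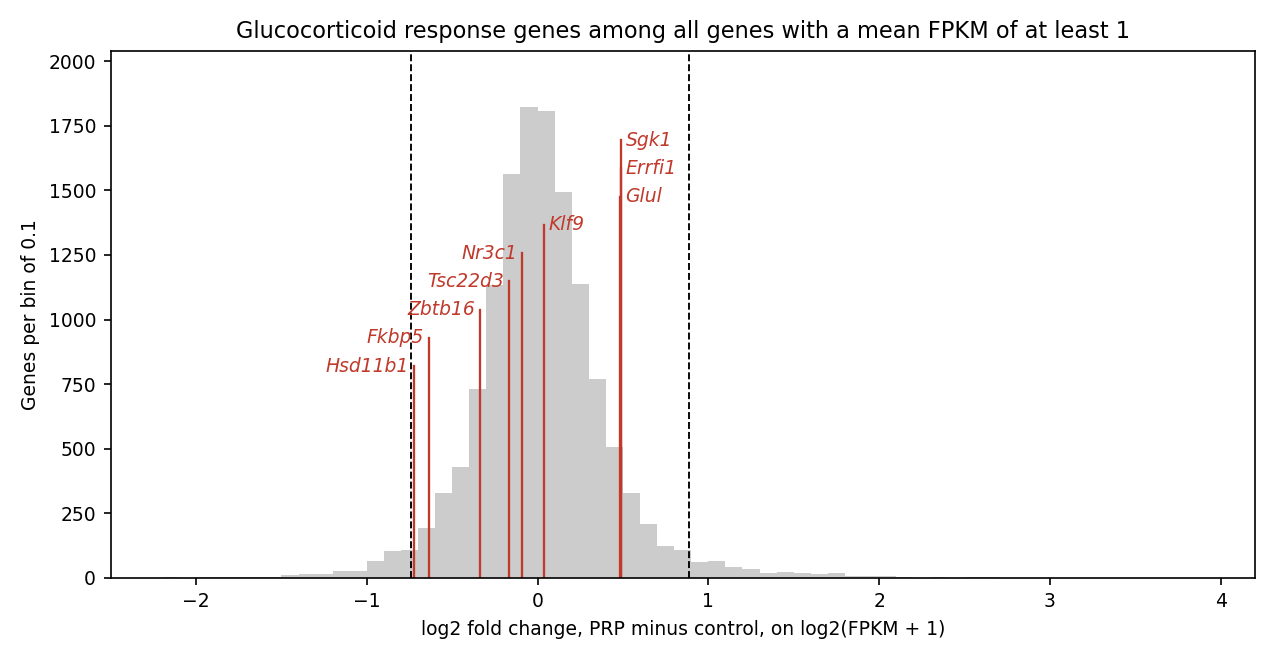
Log2 fold changes (PRP minus control, on log2(FPKM + 1)) of the 13401 genes above the filter, as grey bars that count genes per bin, with the 9 glucocorticoid response genes above the filter as red lines whose heights only separate the labels. The dashed lines mark -0.74 and 0.89, which enclose the central 95% of genes, and Hsd11b1 at -0.72 comes closest to either of them.

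The receptor binds DNA as a dimer, at a palindrome of a pair of 6-base arms set 3 bases apart. Promoters were searched for this element, spelled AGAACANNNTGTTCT and identical on both strands, and for its single arm, AGAACA on one strand or TGTTCT on the other, which every full element also holds. The windows ran from 250 bases before to 50 bases after each RefSeq transcript start (GRCm38.p6), 300 bases in all. Of the 10 genes, 8 matched, with 16 windows, since a gene can have several starts. Nr3c1 and Zbtb16 did not. The full element occurred in 3 of 32851 promoters (0.00913%), and 1 of these belongs to Sgk1. It is shown with its flanks because it was the single full element in the set, with the element in capitals.

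Sgk1, chr10:21993651-21993765, plus strand, GRCm38.p6: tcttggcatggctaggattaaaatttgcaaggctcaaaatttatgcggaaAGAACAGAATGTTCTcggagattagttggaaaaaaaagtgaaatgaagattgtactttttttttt

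The element spans chr10:21993701-21993715 and begins 189 bases before a transcript start at 21993890. Of the 13 Sgk1 transcripts in GENCODE M21, 6 begin downstream of it, 5 hold it in an intron, 2 end before it and 0 hold it in an exon. The single arm occurred in 4 of the 16 windows, which were 3 of Sgk1 and 1 of Tsc22d3, and in 6233 of all 32851 (19.0%). With 1 mismatch allowed, 54 of all promoters (0.164%) matched and Sgk1 was still the only gene of the set. The other genes with a matched window, Hsd11b1, Fkbp5, Errfi1, Glul, Klf9 and Lcn2, held neither the element nor a single arm there. A match says only that these letters are present, and many known receptor sites lie far from promoters, outside these windows.

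Wider lists place the set in its pathway. They were chosen with earlier results of these data known, so their counts are description only. The receptor machinery list held 16 genes, which encode the mineralocorticoid receptor, chaperones, cofactors and the enzymes around HSD11B1. Of these, 14 passed the filter. Under PRP 8 were higher and 6 lower, where 50.9% and 49.1% of all genes were. The median log2 fold change was 0.04 and the highest 0.19. None of the 14 was 1.5-fold changed in either direction, where 6.15% of all genes were at least 1.5-fold higher and 4.57% lower. The 2 genes below the filter were Nr3c2, which encodes the mineralocorticoid receptor, and Hsd11b2. Nr3c2 stood at 0.593 FPKM under PRP and 0.271 in the control, and Hsd11b2 at 0 and 0.207. Above the filter, the largest differences were in the HSP90 co-chaperone gene Ptges3, at 67.9 FPKM under PRP and 59.3 in the control, and in Hsp90aa1, the stress-inducible HSP90, at 794 and 698 FPKM. The corepressor gene Ncor1 was lower, at 20.0 and 22.5 FPKM, a log2 fold change of -0.16. After rescaling of the libraries 7 genes were higher and 7 lower. Transcripts of the chaperone and cofactor genes therefore differed by far less than those of Fkbp5 or Hsd11b1.

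Of 35 other genes that glucocorticoids are known to induce, 25 passed the filter, of which 17 were higher and 8 lower under PRP, where 50.9% of all genes were higher and 49.1% lower. With no filter 18 were higher and 16 lower. The median log2 fold change was 0.20, or 0.059 with no filter, the lowest was -0.48, and 3 genes were at least 1.5-fold higher and 0 at least 1.5-fold lower, where 6.15% and 4.57% of all genes were. The 10 genes below the filter include liver targets such as Tat and Pck1, which stood at 0.0436 FPKM or less. Tgm2, the gene of tissue transglutaminase, was at 24.8 FPKM under PRP and 10.9 in the control, a log2 fold change of 1.11. The acute-phase gene Saa3 was at 36.4 and 18.4 FPKM (0.95), and Nfkbia, whose product IκBα holds NF-κB in the cytoplasm, at 21.8 and 11.0 FPKM (0.93). Cdkn1a, the cell-cycle inhibitor p21, stood at 15.2 and 10.1 FPKM (0.54). As background, Tgm2, Saa3 and Nfkbia are also known to answer to NF-κB, and Cdkn1a to p53. Other genes overlap 21.8% of the exon length of Tgm2.

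The list of 17 genes that glucocorticoids are known to repress had the highest median of the lists. Like the other lists, it was chosen with earlier results of these data known, so its counts are description only. Of these, 10 passed the filter, of which 9 were higher and 1 lower under PRP, where 50.9% and 49.1% of all genes were. The median log2 fold change was 0.94, and 5 were at least 2-fold higher and 0 at least 2-fold lower, where 2% and 0.828% of all genes were. Cxcl2 passed the filter through the PRP library alone, and without it 8 of 9 were higher, 4 were at least 2-fold higher and the median was 0.78. The neutrophil chemokine gene Cxcl1 was at 34.2 FPKM under PRP and 5.06 in the control, a ratio of 6.75 (interval 5.73 to 8.004). Cxcl2, its close relative, stood at 4.51 and 0.255 FPKM, from 374 and 18 reads. Ptgs2, the gene of the prostaglandin-making enzyme COX-2, was at 19.3 and 5.63 FPKM (ratio 3.43, interval 3.09 to 3.82), and the matrix protease gene Mmp3 at 30.6 and 9.89 FPKM (ratio 3.09, interval 2.72 to 3.52). The gene on the other side, named after its value was seen, was Vcam1, at 5.21 FPKM under PRP and 7.15 in the control. The median log2 fold changes above the filter were thus 0.94 for repressed targets, 0.20 for other induced targets and -0.09 for the 9 response genes. Whether the action of the receptor, or of other signals on these genes, differed between the libraries was not tested.

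**Figure D3:**
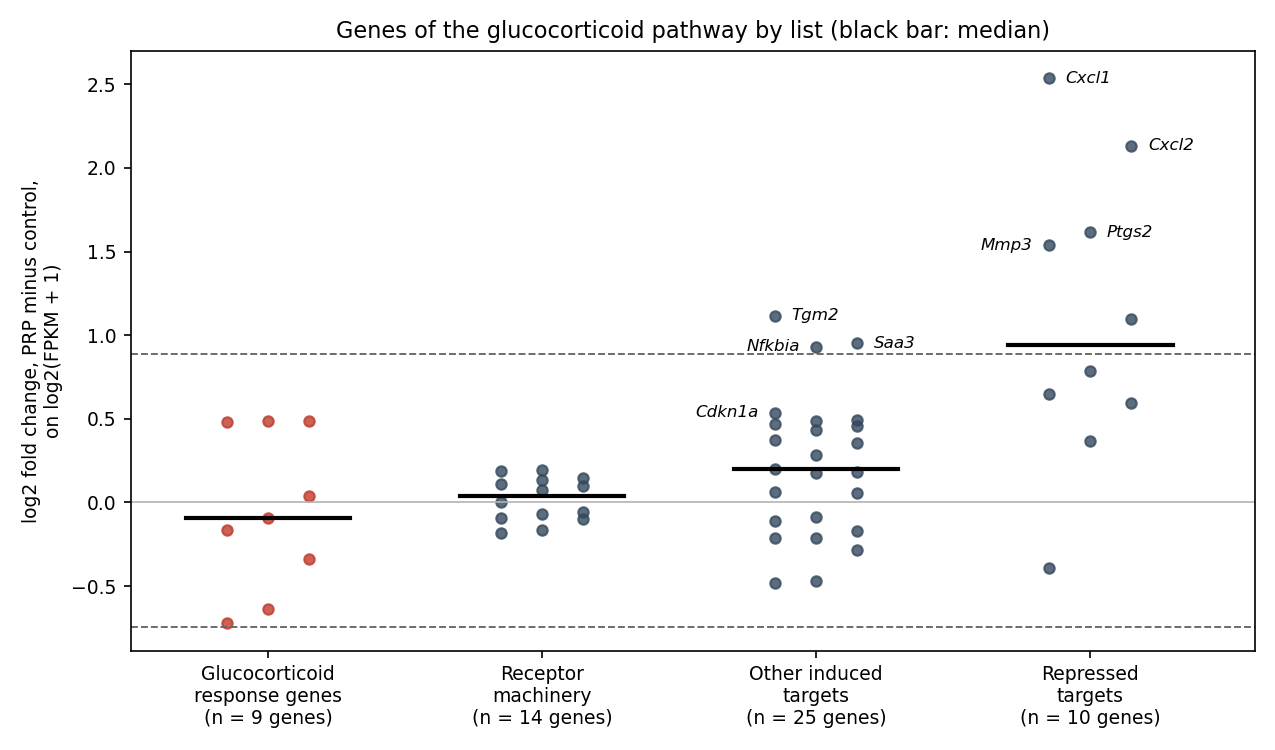
Log2 fold changes (PRP minus control, on log2(FPKM + 1)) of the genes above the filter in each list, 1 dot per gene, with black bars at the medians and dashed lines at -0.74 and 0.89, the central 95% of all genes. The medians are -0.09 for the 9 response genes, 0.04 for the 14 genes of the receptor machinery, 0.20 for 25 other induced targets and 0.94 for 10 repressed targets, where Cxcl1 is highest at 2.54.

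The study names the microRNAs let-7f-5p and miR-16-5p as cargo of the PRP exosomes, and a microRNA lowers transcripts that pair with its seed. The mouse counterparts are shown from RefSeq, with the seed (bases 2 to 8) in capitals, to show which letters were searched.

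mmu-let-7f-5p: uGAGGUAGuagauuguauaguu

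mmu-miR-16-5p: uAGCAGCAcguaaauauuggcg

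For each gene, the longest 3′UTR annotated in GENCODE M21 was searched for the 7-base site that pairs with each seed. The let-7 site CTACCTC occurred in 2 of the 10 genes, Klf9 and Zbtb16, and in 1159 of 10362 genes that passed the filter and had a 3′UTR (11.2%). The miR-16 site TGCTGCT occurred in 3 of the 10 genes, Fkbp5, Sgk1 and Tsc22d3, and in 2806 of the 10362 (27.1%). Hsd11b1, the gene with the lowest log2 fold change of the set, held neither site in its 3′UTR of 377 bases. The sites of the genes at either end of the set that held one are shown with their flanks on the transcribed strand.

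Fkbp5, miR-16 site, chr17:28436109-28436130, minus strand, GRCm38: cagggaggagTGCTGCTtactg

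Sgk1, miR-16 site, chr10:21999522-21999543, plus strand, GRCm38: aggaaagcatTGCTGCTacaaa

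Fkbp5, with this site, was lower in the PRP library (log2 fold change -0.64), and Sgk1, with the same 7 bases, was higher (0.49). Of the other genes with a site, Zbtb16 had a log2 fold change of -0.34, Tsc22d3 of -0.17 and Klf9 of 0.04. Genes with a site thus lay on both sides of no change.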

How the data were processed

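RNA-seq was performed on 2 libraries of FAPs, PRP and control, with 1 library per group. Per the submitters' processing notes, reads were trimmed with fastp 0.23.4, aligned to mm10 with STAR 2.5.3a and counted with featureCounts. The deposited values are FPKM as the authors computed them. The annotation release and the exon lengths used for them are not given in the sources used here. A stranded mRNA kit selects for polyadenylated transcripts.

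Gene identifiers were matched to GENCODE M21 (GRCm38), which held 41492 of 44291 genes. With its exon lengths, 26406 of 28160 genes above 0 (93.8%) gave whole reads in both libraries within 0.001 reads. Even read numbers were in excess, so read numbers were divided by 2 for intervals. Levels carry exact Poisson 95% intervals and ratios of FPKM carry Clopper-Pearson 95% intervals of the PRP share of fragments. No count model was run.

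Fold changes were differences of log2(FPKM + 1), PRP minus control, in genes whose mean FPKM reached 1. Described are all 10 genes, the 4 genes of each of 3 wider lists with the largest absolute log2 fold change, and genes of the cell type lists. One gene that this rule would name is not reported here. The members and lists were chosen with earlier results of these data known. The platelet list is given below, and Myf5 was not analysed here. The alternatives were a pseudocount of 0.1 or 5, a filter left out or set at a mean FPKM of 5, fold thresholds of 1.5 and 4, scaling both libraries to the same sum with and without mitochondrial and the 50 most abundant genes, centring on the median gene, the mean in place of the median, every read counted as independent, and 1 mismatch in the element. Python 3.11.15, NumPy 2.4.6, pandas 2.3.3, SciPy 1.17.1 and matplotlib 3.10.9 were used, and the scripts were tested on simulated data.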

Additional observations from a re-analysis of the deposited data

How the results depend on the processing

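The direction of each of the 10 genes was the same under both pseudocounts and the 3 scalings tried, Lcn2 below the filter included. The ranges of the log2 fold change were -0.78 to -0.62 for Hsd11b1, -0.72 to -0.46 for Fkbp5 and 0.35 to 0.54 for Sgk1. The count of genes at least 2-fold changed was 0, also at a 4-fold threshold, and became 2 at 1.5-fold. Over all genes, 268 were at least 2-fold higher and 111 lower, against 471 and 268 with a pseudocount of 0.1, 84 and 29 with one of 5, 380 and 216 after scaling to the same sum, 391 and 247 when abundant genes were left out of that sum, and 23 and 3 at 4-fold. The median of the set was 0.036 with a filter at a mean FPKM of 5, since Tsc22d3 and Zbtb16 then dropped out. The median of the other induced targets was 0.059 with no filter and 0.32 with a filter at 5. That of the repressed targets was 0.77 with a pseudocount of 5, 0.65 with no filter and 1.097 with a filter at 5, and their mean was 1.09. It was 0.78 without Cxcl2, an alternative chosen after seeing the data. Counting every read as independent made 8 of 9 intervals leave out no change, and rescaling without abundant genes 7 of 9, instead of 6, as Nr3c1 then lay below 1 in both and Tsc22d3 in the first. No paired analysis was possible because there is a single library on each side. A single library per group leaves culture, mouse and library preparation inseparable from the treatment.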

Other observations

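Relatives of the response genes, chosen after their values were seen, are given as values. Tsc22d1, of the same family as Tsc22d3, was at 22.5 FPKM under PRP and 17.1 in the control (ratio 1.32, interval 1.25 to 1.38), and Tsc22d2 at 4.45 and 4.59 (interval of the ratio 0.884 to 1.06). Among Krüppel-like factors, Klf10, a gene induced by TGF-β, was at 6.79 FPKM under PRP and 2.59 in the control, a ratio of 2.62 (interval 2.22 to 3.12). Klf4 stood at 27.4 and 16.2 FPKM, a ratio of 1.69, and the ratio of Klf6 was 1.64, whereas Klf15, a glucocorticoid target that favours adipogenesis, was at 2.27 and 2.13. The intervals of the ratio of Klf2, Klf3, Klf7, Klf13, Klf15 and Klf16 included 1, and Klf2 was below the filter. Fkbp4, which encodes the co-chaperone FKBP52, stood at 30.9 and 33.3 FPKM, a log2 fold change of -0.10, beside -0.64 for Fkbp5. Sgk2 was listed at 0 in both libraries and Sgk3 was at 0.273 and 0.250 FPKM. Of 5 platelet markers 1 passed the filter, Gp1bb, at 0.872 FPKM under PRP and 2.26 under control, and other genes overlap 92.9% of its exon length. Ppbp and Gp9 were listed at 0 in both libraries, and Pf4 gave 2 reads under PRP and 0 under control.

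In the other induced targets, the promoter of Trim63 was the single window within 1 mismatch of the full element, at chr4:134314911-134314925 on the plus strand of GRCm38.p6. The element carries A1T, counted from 1 at its 5′ end with the searched base first. Trim63, which encodes the muscle ubiquitin ligase MuRF1, was at 1.75 FPKM under PRP and 1.92 in the control, with an interval of the ratio of 0.679 to 1.22.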
